A study of Mus musculus with 6 samples.

Results

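The 38 genes described here encode the machinery that copies DNA and the machinery that separates the copied chromosomes. They were listed by symbol: 22 act in DNA replication and 16 in mitosis. A gene was measured where the probe table gave exactly that symbol for a probe set, and where several probe sets carried it the brightest was used. This found all 22 replication genes and 15 of the 16 mitosis genes, so 37 of the 38, among 19938 genes measured in all. The cyclin gene Ccnb1 has 0 entries in the probe table and was not analysed here. RNA came from E14, a line of mouse embryonic stem cells, on 6 expression arrays in 3 groups of 2. The groups were cells given siRNA 1 against p/CIP, cells given siRNA 2 against p/CIP, and control cells given a pool of non-specific siRNAs. All cells, controls included, were thus transfected with siRNA. p/CIP is a coactivator of nuclear receptors encoded by Ncoa3, and the design asks what its loss does to expression in stem cells. The labels give neither the siRNA sequences nor the time after transfection. They do not say whether the replicates were separate cultures either, so a p-value here reflects variation among these samples alone, and that variation may be technical.

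DNA replication starts where the origin recognition complex, with Cdc6 and Cdt1, loads the ring-shaped MCM helicase onto DNA before S phase. Cdc45 and the GINS complex then activate the helicase, and DNA polymerase alpha with its primase starts each new strand. In mitosis, CDK1 with its cyclins drives entry, Polo and Aurora kinases build the spindle, and a checkpoint holds the chromosomes until all are attached. E2F factors switch on many replication genes through E2F sites. The DREAM and MuvB complexes and the factors that replace them act on many mitotic genes through the CHR element, often beside CCAAT boxes bound by NF-Y. Mouse embryonic stem cells are known for a short G1 phase and for expressing much of this machinery throughout the cycle.

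The promoters of replication and mitosis genes held known cell cycle elements at different shares. Promoter windows of 300 bases, running from 250 before to 50 after the transcript start, came from RefSeq on build GRCm38.p6. They were given for 19 replication genes and 14 mitosis genes, Ccnb1 included; Mcm4, Gins1, Gins2, Ccna2 and Aurkb had no entry. A gene with more than 1 window counted as holding an element if any window held it, and both strands were searched. The E2F site was searched as TTTCCCGC, TTTCGCGC, TTTGCCGC or TTTGGCGC. It was in 10 of 19 replication genes (52.6%) and in 1 of 14 mitosis genes (7.14%, Cdk1), against 2.61% of the 27025 genes in the promoter table. The CHR was searched as TTTGAA or TTCGAA and was in 4 of 19 replication genes (21.1%) and 11 of 14 mitosis genes (78.6%), against 21.7% of all genes. The CCAAT box, searched as CCAAT, was in 15 of 19 replication genes (78.9%) and 13 of 14 mitosis genes (92.9%), against 41.1% of all genes. These matches are letters in a window and do not show that a factor binds there.

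The windows below belong to the replication genes E2f2 and Orc1 and the mitosis genes Bub1b and Top2a, the genes of smallest p in each class among those with a window. They were picked by p and not by the elements they carry. Capitals mark E2F sites (TTTGGCGC, or GCGCGAAA read from the other strand), the CHR (TTTGAA or TTCGAA, or TTCAAA from the other strand) and the CCAAT box (CCAAT, or ATTGG from the other strand). Each is written 5′ to 3′ along its gene's strand. E2f2 lies at chr4:136172024-136172323 on the plus strand. Orc1 lies at chr4:108579204-108579503 on the plus strand. Bub1b lies at chr2:118597961-118598260 on the plus strand. Top2a lies at chr11:99024140-99024439 on the minus strand. E2f2 also has a second window at another start, which is not printed. That window holds a CHR (TTTGAA) and CCAAT boxes, so E2f2 counts among the replication genes with a CHR.
E2f2: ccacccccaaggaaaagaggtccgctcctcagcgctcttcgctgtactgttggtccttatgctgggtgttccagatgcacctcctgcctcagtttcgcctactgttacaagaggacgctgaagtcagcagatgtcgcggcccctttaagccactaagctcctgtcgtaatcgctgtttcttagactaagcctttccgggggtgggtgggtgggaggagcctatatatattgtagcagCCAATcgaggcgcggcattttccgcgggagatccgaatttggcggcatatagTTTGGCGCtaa
Orc1: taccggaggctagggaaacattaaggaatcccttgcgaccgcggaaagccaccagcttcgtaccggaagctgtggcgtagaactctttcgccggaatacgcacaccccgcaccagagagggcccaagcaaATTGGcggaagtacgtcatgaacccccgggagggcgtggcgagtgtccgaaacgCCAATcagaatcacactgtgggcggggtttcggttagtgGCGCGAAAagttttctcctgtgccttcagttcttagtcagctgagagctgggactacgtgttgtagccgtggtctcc
Bub1b: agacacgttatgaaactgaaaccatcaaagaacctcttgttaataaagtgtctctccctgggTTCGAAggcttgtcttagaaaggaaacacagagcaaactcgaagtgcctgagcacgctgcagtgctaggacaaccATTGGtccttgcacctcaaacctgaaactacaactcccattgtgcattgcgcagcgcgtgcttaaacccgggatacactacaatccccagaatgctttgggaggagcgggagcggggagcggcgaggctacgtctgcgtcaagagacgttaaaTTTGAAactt
Top2a: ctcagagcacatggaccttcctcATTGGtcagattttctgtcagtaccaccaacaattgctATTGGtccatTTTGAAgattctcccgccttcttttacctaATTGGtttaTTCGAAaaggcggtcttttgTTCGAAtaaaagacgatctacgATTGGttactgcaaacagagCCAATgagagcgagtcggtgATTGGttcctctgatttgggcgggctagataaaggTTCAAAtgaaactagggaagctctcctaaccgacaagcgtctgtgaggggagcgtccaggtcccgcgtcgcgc

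In the Orc1 window the E2F site lies on the reverse strand and starts 27 bases before the transcript start, downstream of both CCAAT boxes. The E2f2 window holds an E2F site beyond the transcript start and a single CCAAT box. Bub1b has a CHR at each end of its window and a CCAAT box between them. The Top2a window holds 4 CHR matches and 6 CCAAT boxes.

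The knockdown was visible in its target on every array. Ncoa3 had log2 values of 10.71 and 10.93 with siRNA 1 and 10.71 and 10.92 with siRNA 2, against 12.33 and 12.28 with control siRNA. All 4 knockdown arrays lay below both controls, by 2.81-fold for both siRNAs together (log2 change -1.49, standard error 0.0964, limma adjusted p = 0.0287). For siRNA 2 alone Ncoa3 missed the threshold of 0.05 (adjusted p = 0.0742; 0.048 with the replicate number as a block). Array medians lay between 7.77 and 7.84, while the middle spread of values (interquartile range) was 3.36 and 3.13 with siRNA 1, 3.40 and 3.33 with siRNA 2, and 3.45 and 3.35 with control. In each group the second array had the narrower spread. It was narrowest on the second siRNA 1 array, which also correlated least with the others (mean r 0.994, against up to 0.997). All 10 markers of embryonic stem cells had control means between 10.6 and 13.6. The control means of 10 fibroblast markers lay between 4.12 and 9.03, and those of 10 extraembryonic endoderm markers between 5.43 and 9.62. For 9 mesoderm markers they were 6.24 to 9.22, and for 9 neural ectoderm markers 6.31 to 9.50. Those of 9 trophoblast markers ran from 6.06 to 12.5 and so reached into the range of the stem cell markers. Probe sets differ, so levels of different genes are not strictly comparable.

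Neither replication nor mitosis genes passed the test when both p/CIP siRNAs were set against control siRNA. By limma with Benjamini-Hochberg adjustment over 19938 genes, 0 of the 37 were called at 0.05, where 0.0702% of all genes were. The smallest adjusted p among them was 0.577. At an unadjusted p under 0.05 the count was also 0 of 37, where 8.72% of all genes passed. With the replicate number as a block, the smallest adjusted p was 0.243 and 0 of 37 were called (0.341% of all genes). At an unadjusted p under 0.05 in that fit, 3 of 37 had lower values with knockdown (Orc1, Pola1 and E2f2), where 17.5% of all genes passed. In whole cultures, fewer cells in S phase or mitosis and less RNA of these genes per cell cannot be told apart.

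The estimates were small, and most lay below 0. With both siRNAs, 18 of 22 replication genes and 12 of 15 mitosis genes had lower means than control, against 9502 of 19938 genes overall. The median log2 change was -0.063 for replication genes and -0.054 for mitosis genes, against 0.0065 over all genes. The replication median was -0.024 without the first control array and -0.098 without the second, so a single control array moved it by more than 1.5 times. The 37 changes ran from -0.23 (Orc1) to 0.081 (Mcm2). For 35 of the 37, the 95% interval of the change without the replicate block lay within 0.5 on the log2 scale either way, which is 1.41-fold. The exceptions were Orc1 and Pola1, whose lower bounds were -0.53 and -0.51. Changes beyond 1.41-fold thus lay outside the intervals of these 35 genes, but smaller ones did not. With the replicate block, all 37 intervals lay within 0.5. Quantile normalization of the deposited values gives every array the same spread. After it, 22 of 37 lay below control and the medians were -0.021 and -0.0092. Over all genes 8537 of 19938 then lay below control, with a median of 0.019. Cyclic loess gave 23 of 37 and medians of -0.018 and -0.0094, against 0.0074 over all genes. With array medians aligned, 31 of 37 lay below control and the medians were -0.064 and -0.055, against 0.0054 over all genes. The number below control thus depended on how the arrays were scaled.

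**Figure D1:**
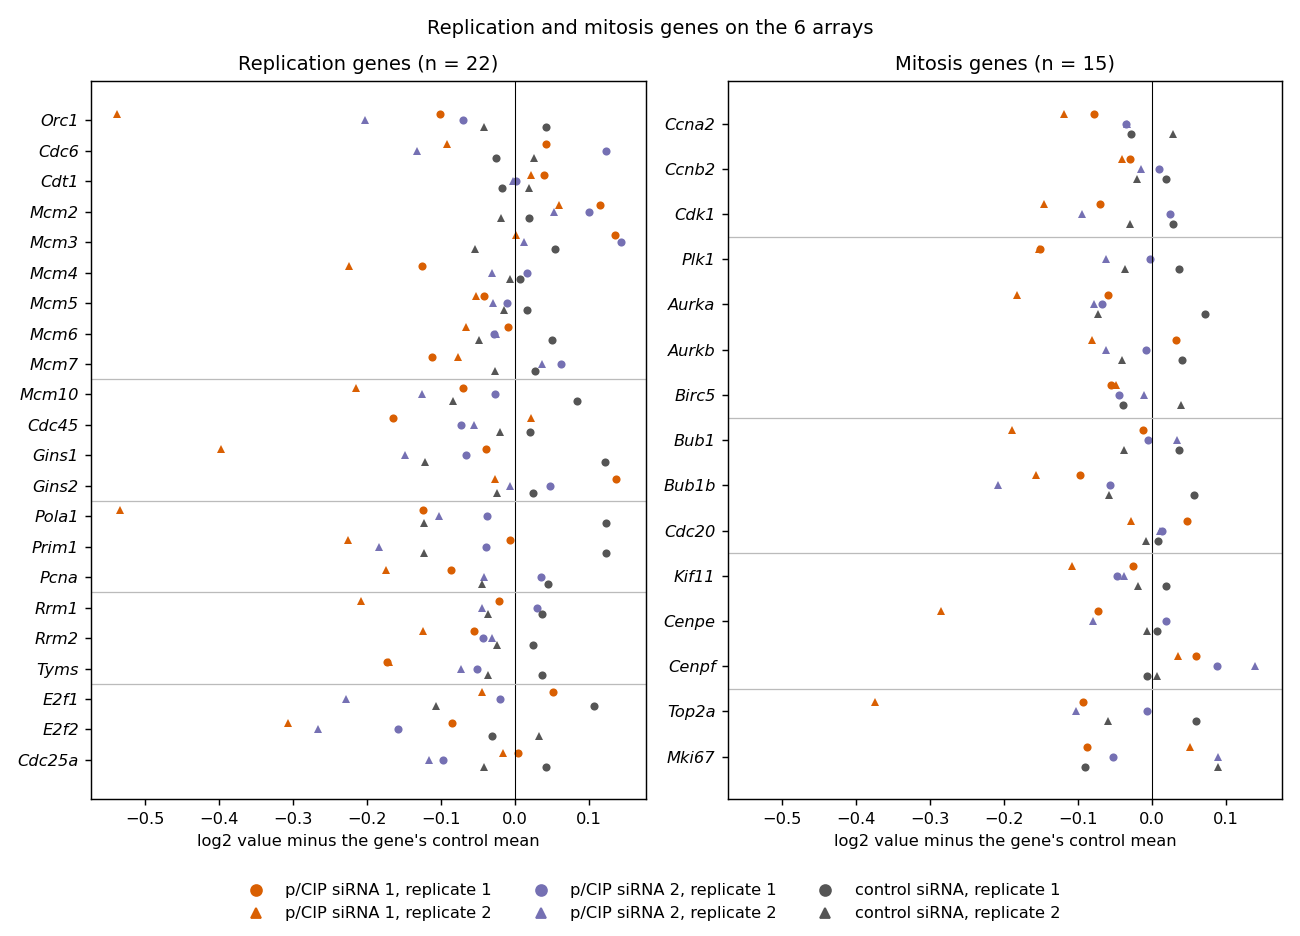
Log2 value of each replication gene (left) and mitosis gene (right) on each array, minus the mean of the 2 control arrays, with siRNA 1, siRNA 2 and control arrays marked by colour. Points lie close to 0 for most genes, with Orc1 and Pola1 on the second siRNA 1 array farthest below it.

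**Figure D2:**
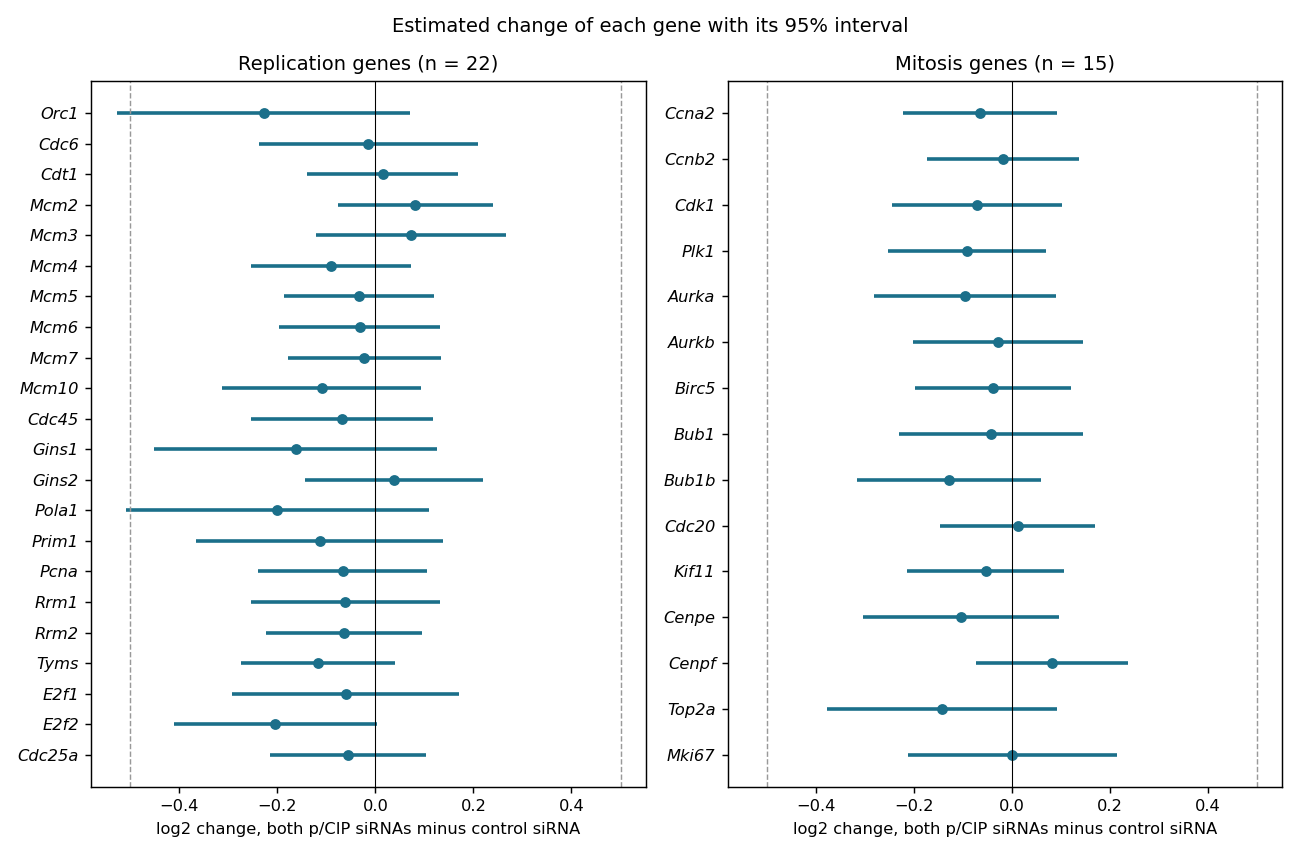
Log2 change with both p/CIP siRNAs against control siRNA for each gene, with its 95% interval from limma without the replicate block. Dashed lines mark 0.5 either way. All 37 intervals cross 0, and those of Orc1 and Pola1 pass the lower dashed line. With the replicate block, which is not drawn, the intervals of Orc1, Pola1 and E2f2 lay below 0.

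Among the genes that load the helicase, Orc1 had the largest estimate. Orc1, the largest subunit of the origin recognition complex, had log2 values of 10.76 and 10.32 with siRNA 1 and 10.79 and 10.66 with siRNA 2, against 10.90 and 10.82 with control. All 4 knockdown arrays were below both controls, but the siRNA 1 arrays lay far apart, and the change of -0.23 (standard error 0.126, limma adjusted p = 0.654) did not pass. Mcm4, an MCM subunit, had 11.34 and 11.24 with siRNA 1 and 11.48 and 11.43 with siRNA 2, against 11.47 and 11.46 with control. Its siRNA 1 arrays were below both controls and its siRNA 2 arrays overlapped them (both siRNAs -0.091, standard error 0.0689, adjusted p = 0.729). Mcm2, another MCM subunit, had 12.19 and 12.13 with siRNA 1 and 12.17 and 12.12 with siRNA 2, against 12.09 and 12.05 with control. Here all 4 knockdown arrays lay above both controls, at a change of 0.081 that did not pass (limma adjusted p = 0.747). Cdc6 (-0.015) and Cdt1 (0.015), the loaders of the helicase, and the subunits Mcm3 (0.073), Mcm5 (-0.034), Mcm6 (-0.032) and Mcm7 (-0.023) had estimates on either side of 0. The 9 genes of this step had a median of -0.023.

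The genes that activate the helicase and start DNA synthesis had changes of -0.2 to 0.037. Gins1, a GINS subunit, had 9.43 and 9.07 with siRNA 1 and 9.40 and 9.32 with siRNA 2, against 9.59 and 9.35 with control. Its knockdown and control arrays overlapped (change -0.16, standard error 0.122, limma adjusted p = 0.724). Mcm10, which helps the helicase to open DNA, had 11.10 and 10.96 with siRNA 1 and 11.15 and 11.05 with siRNA 2, against 11.26 and 11.09 with control. These groups overlapped as well (-0.11, standard error 0.0855, adjusted p = 0.735), and Cdc45 (-0.068) and Gins2 (0.037) lay nearer 0. Pola1, the catalytic subunit of DNA polymerase alpha, had 9.59 and 9.18 with siRNA 1 and 9.68 and 9.61 with siRNA 2, against 9.84 and 9.59 with control. The second siRNA 1 array stood well below the rest and the groups overlapped (-0.2, standard error 0.13, limma adjusted p = 0.688). Prim1, the primase subunit that makes the RNA primer, had 10.27 and 10.05 with siRNA 1 and 10.23 and 10.09 with siRNA 2, against 10.40 and 10.15 with control. In each of the 3 groups its second array was the lower one (-0.11, standard error 0.106, adjusted p = 0.77). Pcna, the sliding clamp of the polymerases, had an estimate of -0.067. Its 2 probe sets had equal values on 6 of 6 arrays, so they are not separate measurements.

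Genes of nucleotide supply and of entry into S phase lay below control in 6 of 6 cases, with none past the test. Tyms, thymidylate synthase, had 11.21 and 11.21 with siRNA 1 and 11.33 and 11.31 with siRNA 2, against 11.42 and 11.35 with control. All 4 knockdown arrays lay below both controls, the siRNA 1 arrays farther (change -0.12, standard error 0.0665, limma adjusted p = 0.657). Rrm2, a subunit of ribonucleotide reductase, had 12.26 and 12.19 with siRNA 1 and 12.27 and 12.28 with siRNA 2, against 12.34 and 12.29 with control. It too was below both controls on all 4 arrays, by a small amount (-0.064, standard error 0.067, adjusted p = 0.794), and its partner subunit Rrm1 had -0.061. E2f2, an activating E2F factor, had 8.10 and 7.88 with siRNA 1 and 8.03 and 7.92 with siRNA 2, against 8.16 and 8.22 with control. The groups did not overlap, and E2f2 had the smallest p of the 37 (change -0.2, standard error 0.0875, 95% interval -0.41 to 0.0039, unadjusted p = 0.0533, limma adjusted p = 0.577). Cdc25a, a phosphatase that activates CDKs, had 11.73 and 11.71 with siRNA 1 and 11.63 and 11.61 with siRNA 2, against 11.77 and 11.69 with control. Both of its siRNA 2 arrays lay below both controls (both siRNAs -0.056, standard error 0.0672, limma adjusted p = 0.821), and E2f1, an activating E2F factor like E2f2, had -0.061.

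The mitotic cyclins, CDK1 and the mitotic kinases had estimates between -0.097 and -0.019. Ccna2, cyclin A2, had 12.47 and 12.43 with siRNA 1 and 12.51 and 12.51 with siRNA 2, against 12.52 and 12.57 with control. All 4 knockdown arrays lay just below both controls (-0.066, standard error 0.066, limma adjusted p = 0.781). Cdk1, the kinase that drives entry into mitosis, had 12.20 and 12.13 with siRNA 1 and 12.30 and 12.18 with siRNA 2, against 12.30 and 12.24 with control. Its groups overlapped through the first siRNA 2 array (-0.072, standard error 0.0732, adjusted p = 0.788), and Ccnb2, cyclin B2, had -0.019. Plk1, the Polo kinase of spindle assembly, had 12.29 and 12.29 with siRNA 1 and 12.44 and 12.38 with siRNA 2, against 12.48 and 12.41 with control. Both siRNA 1 arrays lay below both controls and the siRNA 2 arrays overlapped them (both siRNAs -0.092, standard error 0.0676, limma adjusted p = 0.72). Aurka, the Aurora kinase of the spindle poles, had 11.35 and 11.23 with siRNA 1 and 11.34 and 11.33 with siRNA 2, against 11.48 and 11.34 with control. The groups overlapped (-0.097, standard error 0.078, adjusted p = 0.742), and the chromosomal passenger genes Aurkb and Birc5 (survivin) had -0.03 and -0.04.

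Checkpoint, motor and chromosome genes held the lowest and highest estimates among the mitosis genes. Bub1b, the checkpoint protein BubR1, had 11.31 and 11.25 with siRNA 1 and 11.35 and 11.20 with siRNA 2, against 11.46 and 11.35 with control. The first siRNA 2 array and the second control array lay side by side, so the groups overlapped narrowly (-0.13, standard error 0.0791, limma adjusted p = 0.673). Bub1, a checkpoint kinase, had 11.67 and 11.50 with siRNA 1 and 11.68 and 11.72 with siRNA 2, against 11.72 and 11.65 with control. Its arrays were mixed (-0.043, standard error 0.0787, adjusted p = 0.888), and Cdc20, the activator of the anaphase-promoting complex, had 0.011. Cenpe, a kinetochore motor, had 9.94 and 9.72 with siRNA 1 and 10.03 and 9.93 with siRNA 2, against 10.01 and 10.001 with control. Its second siRNA 1 array was the low one (-0.1, standard error 0.0844, limma adjusted p = 0.744). Cenpf, a large kinetochore protein, had 9.60 and 9.58 with siRNA 1 and 9.63 and 9.68 with siRNA 2, against 9.54 and 9.55 with control. All 4 knockdown arrays lay above both controls (0.081, standard error 0.0654, limma adjusted p = 0.744), while Kif11, the kinesin that pushes spindle poles apart, lay below both on all 4 at -0.054. Top2a, the topoisomerase that untangles mitotic chromosomes, had 11.50 and 11.22 with siRNA 1 and 11.58 and 11.49 with siRNA 2, against 11.65 and 11.53 with control. The second siRNA 1 array was again lowest (-0.14, standard error 0.0986, adjusted p = 0.702). Mki67, the proliferation marker Ki-67, had 10.84 and 10.98 with siRNA 1 and 10.87 and 11.02 with siRNA 2, against 10.84 and 11.02 with control. Here the groups nearly coincided and the second array of each was the higher (0.000275, standard error 0.0895, limma adjusted p = 0.9997).

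Without overlap between all 4 knockdown arrays and both controls, 6 of 37 genes lay lower (Orc1, Rrm2, Tyms, E2f2, Ccna2 and Kif11) and 2 higher (Mcm2 and Cenpf). Over all genes, 10.1% lay lower in this way and 8.83% higher. Replication genes with an E2F site had a median change of -0.033 (10 genes) and those without one -0.067 (9 genes). Mitosis genes with a CHR had a median of -0.054 (11 genes), and the 2 measured ones without, Birc5 and Cenpe, had -0.072. The ranges of the genes with and without the element overlapped in both classes.

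Each siRNA was then compared with control on its own; the 2 comparisons share the control arrays. With siRNA 1, 0 of 37 genes were called by limma (0.0702% of all genes), the smallest adjusted p was 0.426, and 0 had an unadjusted p under 0.05 (12.1% of all genes). Estimates lay below control for 17 of 22 replication genes (median -0.093) and 13 of 15 mitosis genes (median -0.098), against an all-gene median of 0.021. After quantile normalization the counts were 13 of 22 (median -0.026) and 9 of 15 (median -0.029), against an all-gene median of 0.032. With array medians aligned the counts were 18 of 22 (median -0.11) and 14 of 15 (median -0.11), against an all-gene median of 0.0069. The size thus depended on the scaling. The 3 replication genes of smallest p were Tyms (-0.17), Orc1 (-0.32) and Mcm4 (-0.17), closely followed by Pola1 (-0.33), and the mitosis genes were Top2a (-0.23), Plk1 (-0.15) and Cenpe (-0.18). Both siRNA 1 arrays lay below both controls for 18 of 37 genes, where 20.5% of all genes did so, and above both for 3, where 22.9% did. The intervals lay within 1.41-fold for 33 of 37; those of Orc1, Gins1, Pola1 and Top2a reached lower, down to -0.69. With the replicate number as a block, 0 of 37 were called (1.21% of all genes; smallest adjusted p = 0.126). In that fit 6 genes had an unadjusted p under 0.05, all lower (Orc1, Mcm4, Gins1, Pola1, Tyms and Top2a), where 24.3% of all genes passed.

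With siRNA 2 the estimates lay closer to control. By limma, 0 of 37 genes were called (0% of all genes), the smallest adjusted p was 0.984, and 0 had an unadjusted p under 0.05 (5.25% of all genes). The medians were -0.032 for replication genes, of which 18 of 22 lay below control, and -0.032 for mitosis genes, of which 11 of 15 did. Over all genes the median was -0.0072, and 10533 of 19938 lay below control. For replication genes the count was 11 of 22 (median -0.0067) after quantile normalization and 13 of 22 with array medians aligned. For mitosis genes it was 10 of 15 under either scaling. The genes of smallest p were E2f2 (-0.21), Cdc25a (-0.11) and E2f1 (-0.12) for replication, and Cenpf (0.11), Bub1b (-0.13) and Aurka (-0.073) for mitosis. All 37 intervals lay within 1.41-fold. Both siRNA 2 arrays lay below both controls for 8 of 37 genes (19.8% of all genes) and above both for 4 (16% of all genes). With the replicate block the counts were 0 called (0.13% of all genes; smallest adjusted p = 0.488) and 1 at an unadjusted p under 0.05, E2f2, where 10.1% of all genes passed.

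Set directly against each other, the siRNAs were not told apart at any of the 37 genes. By limma, 0 were called for siRNA 2 against siRNA 1 (0% of all genes; smallest adjusted p = 0.733), and 0 had an unadjusted p under 0.05 (6.9% of all genes). Estimates were higher with siRNA 2 for 16 of 22 replication genes (median 0.024) and 13 of 15 mitosis genes (median 0.048), against an all-gene median of -0.026. The genes of smallest p were Mcm4 (0.17), Mcm7 (0.14) and Pola1 (0.26) for replication and Top2a (0.18), Plk1 (0.12) and Cenpe (0.15) for mitosis. In the deposited values 8 of 37 were lower with siRNA 2 and the median over the 37 was 0.037. After quantile normalization 19 of 37 were lower with siRNA 2 and the median was -0.0074, against an all-gene median of -0.025. With array medians aligned, 4 of 37 were lower with siRNA 2 and the median was 0.063, against -0.00024 over all genes. After cyclic loess 17 of 37 were lower and the median was 0.0046, against -0.012 over all genes. The sign of the median and the count thus depended on the scaling, while the median lay above the all-gene median under each scaling. With the replicate block 0 were called (0.0752% of all genes; smallest adjusted p = 0.292), and Mcm4 and Pola1 had an unadjusted p under 0.05, where 15.6% of all genes passed.

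**Figure D3:**
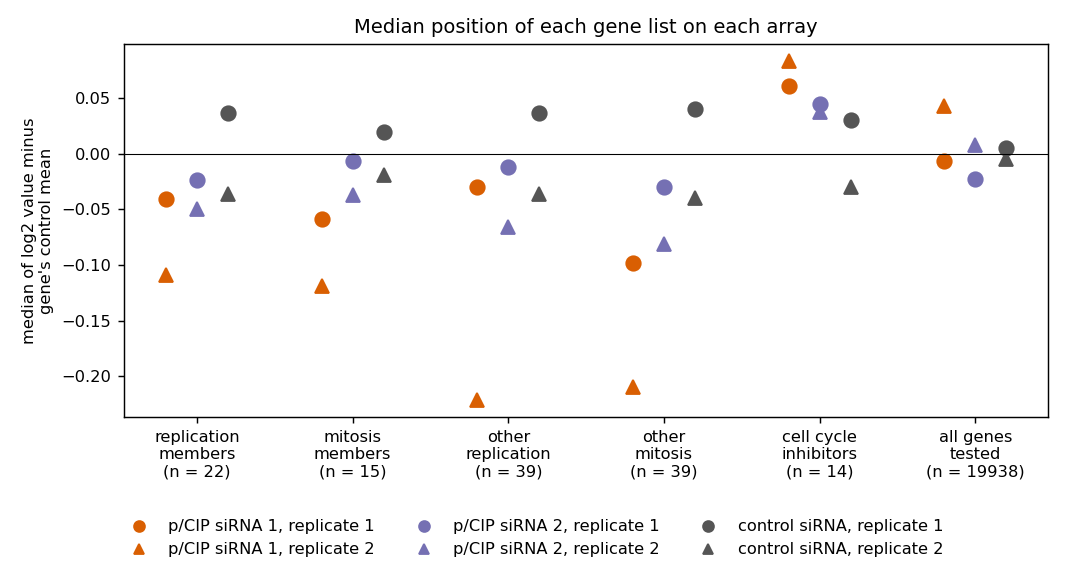
Median log2 difference from the control mean on each array for each gene group, with siRNA 1 arrays first, siRNA 2 arrays next and control arrays last. Replication and mitosis genes lay lowest on the second siRNA 1 array, at -0.11 and -0.12.

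Arrays with the replicate number 2 differed from those with number 1 about as much as the siRNAs did. The replicate difference was larger than the change with both siRNAs in 19 of 37 genes, 11 of 22 for replication and 8 of 15 for mitosis. Values were lower on the second arrays for 20 of 22 replication genes (median -0.087) and 11 of 15 mitosis genes (median -0.044), against an all-gene median of 0.026. In a limma fit with group and replicate number, 0 of 37 were called (0.0251% of all genes; smallest adjusted p = 0.126). At an unadjusted p under 0.05, 8 were lower on the second arrays (Orc1, Mcm3, Mcm10, Gins1, Pola1, Prim1, E2f1 and Top2a) and 1 was higher (Mki67), where 24.5% of all genes passed. Within the groups, 32 of 37 genes were lower on the second array with siRNA 1, 28 with siRNA 2 and 30 with control. Over all genes the shares were 41.6%, 42% and 52.6% in the same order. Replication genes gave 19 of 22 in each group.

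The direction of single genes held in each group for several of these. Prim1, of smallest p, differed by -0.22 with siRNA 1, -0.15 with siRNA 2 and -0.25 with control. Gins1 differed by -0.36, -0.083 and -0.24 in the same groups, Pola1 by -0.41, -0.065 and -0.25, and E2f1 by -0.096, -0.21 and -0.21. Among mitosis genes, Mki67 differed by 0.14, 0.14 and 0.18, Top2a by -0.28, -0.097 and -0.12, and Bub1b, the third by p, had a fitted difference of -0.11. Each of Prim1, Gins1, Pola1, E2f1 and Top2a was thus lower on the second array in all 3 groups, and Mki67 was higher in all 3. These genes had a small p for this difference, and that p is small where the 3 groups agree. Their agreement is therefore not a separate result. The second arrays also had the narrower spread of values, and its part in this difference was not tested. After quantile normalization 27 of 37 genes were lower on the second arrays, against 10283 of 19938 genes in all. After cyclic loess 24 of 37 were lower (9899 of 19938 in all), and with array medians aligned 34 of 37 (10207 of 19938 in all). What the replicate number stands for is not stated in the labels. Markers of extraembryonic endoderm moved the other way: 9 of 10 were higher on the second arrays (median 0.20), and their mean log2 value was 7.62 and 8.08 with siRNA 1, 7.60 and 7.81 with siRNA 2, and 7.53 and 7.77 with control. Fibroblast markers were higher on the second arrays in 8 of 10 cases, with means of 6.92 and 7.14, 7.01 and 7.09, and 6.91 and 7.02 in the same groups. Trophoblast markers were higher on the second arrays in 7 of 9 cases (median 0.17), with means of 9.49 and 9.65 with siRNA 1, 9.31 and 9.54 with siRNA 2, and 9.33 and 9.43 with control. Stem cell markers were lower there in 8 of 10 cases (median -0.13), with means of 12.23 and 12.12, 12.25 and 12.15, and 12.48 and 12.37 in the same groups. Mesoderm markers were higher in 6 of 9 cases (median 0.066) and neural ectoderm markers in 5 of 9 (median 0.029). The part of these markers' cells in the replicate difference was not tested.

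**Figure D4:**
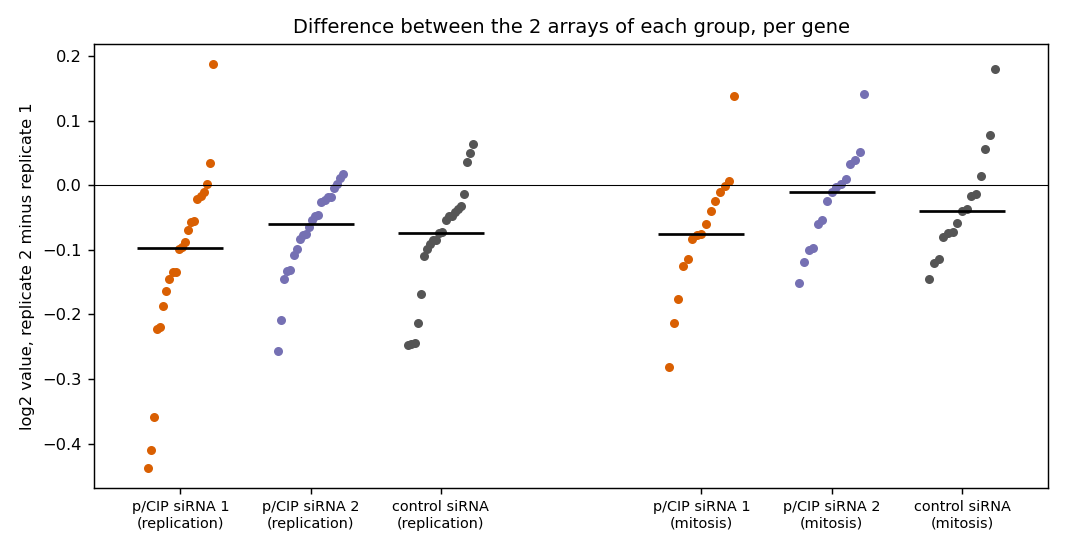
Log2 difference of the second minus the first array within siRNA 1, siRNA 2 and control for each replication and mitosis gene. Most points lie below 0 in all 3 groups, while Mki67 lies above it in all 3.

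Other genes of the same pathways also had mostly negative estimates without passing the test. Of 39 further replication genes measured, 31 lay below control with both siRNAs (median -0.099), with 0 called by limma (0.0702% of all genes) and 3 at an unadjusted p under 0.05, where 8.72% of all genes passed. Ticrr, which helps to activate the helicase, had 11.49 and 11.39 with siRNA 1 and 11.63 and 11.55 with siRNA 2, against 11.89 and 11.88 with control. Its groups stood well apart (-0.37, standard error 0.07, limma adjusted p = 0.187), and with the replicate block it passed for siRNA 1 (adjusted p = 0.0476). Tk1, thymidine kinase, had -0.21, Orc2, an origin recognition subunit, -0.27, and Rfc1, of the clamp loader, -0.17, none of which passed. Of 40 further mitosis genes, 39 were measured (all but Kifc1), and 35 lay below control (median -0.11), with 0 called, and 3 lower and 1 higher at an unadjusted p under 0.05 against the same 8.72% of all genes. The smallest p values belonged to Cep55 (-0.35), which acts in the final cut between daughter cells, Smc2 (0.25), a condensin subunit, Pttg1 (-0.22), securin, and Kif18a (-0.31), a kinesin of chromosome alignment. None of these passed (limma adjusted p = 0.289 for Cep55).

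Inhibitors of the cycle had estimates on both sides of control. Of 15 inhibitors, 14 were measured (all but Cdkn1a), 9 lay above control (median 0.058), as did 10436 of 19938 genes overall. None was called by limma (0.0702% of all genes), and 1 of the 14 had an unadjusted p under 0.05 (8.72% of all genes). Cdkn2a, the Ink4a and Arf locus, had 8.15 and 8.27 with siRNA 1 and 8.13 and 8.26 with siRNA 2, against 7.97 and 8.05 with control, above both controls on all 4 arrays (0.19, limma adjusted p = 0.559). Btg2 (0.19) and Btg1 (0.15), antiproliferative factors, and Cdkn2c (0.19), a CDK inhibitor, did not pass either. These 4 were named by their p and all lay above control, while 5 of the 14 lay below it, down to -0.16. With siRNA 1 alone the changes of the 14 ran from -0.34 to 0.28. Of 10 stem cell markers, 9 lay below control (median -0.13) with 0 called and 4 at an unadjusted p under 0.05 (8.72% of all genes). Klf4 (-0.78), Esrrb (-0.5), Nanog (-0.33) and Zfp42 (-0.39), transcription factors of the naive state, had the smallest p. Klf4 and Esrrb passed with the replicate block (limma adjusted p = 0.018 and 0.0386), where 0.341% of all genes did. For siRNA 1 alone with the block, 3 of the 10 were called (1.21% of all genes), and for siRNA 2 alone 1 was (0.13%). Extraembryonic endoderm markers lay above control in 9 of 10 cases (median 0.15), trophoblast markers in 8 of 9 (0.12) and fibroblast markers in 7 of 10 (0.07). Mesoderm markers did so in 6 of 9 cases (0.074) and neural ectoderm markers in 3 of 9 (-0.0092). None of these markers was called (0.0702% of all genes). Their part in the lower estimates of the replication and mitosis genes was not tested.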

How the data were processed

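RNA of 6 transfected E14 samples was measured on expression arrays. The authors deposited log2 values for 35556 probe sets per array. The base is not stated and was taken from the values, which run from 2.69 to 14.6. Per the submitters' processing notes Partek was used; version, background correction and normalization: not given in the sources used here. The number of arrays, 2 per group, limits the precision. No background values were used. GEO's platform annotation gave 1 symbol for 21789 probe sets, several for 1621 (left unnamed) and none was listed for 12146; the brightest probe set stood for each of 999 genes with more than 1, leaving 19938 genes.

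The 3 groups shared a limma fit (version 3.58.1, R 4.3.3; lmFit, then eBayes; 1 coefficient per group; 3 residual and 3.84 prior degrees of freedom), two-sided, with Benjamini-Hochberg adjustment over all genes at 0.05. The error beside a change is limma's standard error. The steps were tested on simulated data. Alternatives covered scaling, filters, the variance prior, a replicate block, an array code block and leaving out each array. Across genes, deviations of arrays with the same replicate number correlated at 0.461 (siRNA 1 with siRNA 2), 0.464 (siRNA 1 with control) and 0.407 (siRNA 2 with control), and being over 0.1 they were read as pairing. This check comes from the data and is weak with 2 arrays a group. The main fit of the siRNA comparisons leaves this pairing out. Their p-values, standard errors and intervals come from that fit unless the replicate block is named. The genes and lists were chosen with earlier results of these data known. Values on every array are given for the 2 genes of smallest p in each role, and the 3 of smallest p in each class are named for the other comparisons, with up to 4 per further list; Mcm2, Cenpf and Mcm7 were given more room after their values were seen. Promoters are RefSeq's (GRCm38.p6); array coordinates are not reported.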

Additional observations from a re-analysis of the deposited data

Results flagged for a closer look

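Mcm7, a subunit of the MCM helicase, was singled out because the siRNAs lay on opposite sides of control on every array. Its log2 values were 12.43 and 12.46 with siRNA 1 and 12.60 and 12.58 with siRNA 2, against 12.57 and 12.52 with control. The siRNA 1 arrays lay below both controls and the siRNA 2 arrays above both. Mcm7 was picked by this pattern after the values of the listed genes were seen. Over all genes, both siRNA 1 arrays lay below both controls for 20.5%, and both siRNA 2 arrays lay above both for 16%. The share of all genes with the full pattern is not given here, so whether it is unusual was not tested. Mcm7 was not recomputed under other scalings. The difference of siRNA 2 minus siRNA 1 was 0.14 on the log2 scale (95% interval -0.037 to 0.33) and did not pass (limma adjusted p = 0.741).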

How the results depend on the processing

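Across the alternatives run, 0 of the 37 genes were called in any of the 4 siRNA comparisons, including the fits with the replicate block, whose calls among the 37 were also 0. Over all 37 genes, 30 lay below control with both siRNAs. This number ran from 26 to 32 with 1 array left out and from 22 to 31 otherwise. Single values were recomputed only for the 2 genes of smallest p in each role, 20 genes in all. Of these 300 values, 292 kept their sign, 8 turned and 0 crossed the threshold. The sign turned for Bub1 (0.00071 after quantile normalization, 0.0011 after cyclic loess, and -0.088 to 8e-04 with 1 array left out), for Mki67 (-0.00084 with array medians aligned, and -0.0896 to 0.0901 with 1 array left out) and for Prim1 (-0.237 to 0.0087 with 1 array left out). The median of the mitosis genes was -0.0092 after quantile normalization and -0.0094 after cyclic loess. With 1 array left out, the medians ran from -0.098 (without control replicate 2) to -0.024 (without control replicate 1) for replication genes and from -0.076 to -0.041 for mitosis genes. Between replicate numbers, 1 of the 37 was called when genes below the median level were dropped and 8 with an intensity trend in the prior, against 0. Over all 19938 genes, the replicate calls rose from 5 to 1702 with that trend. The all-gene number for the fit above the median level is not given here. The cause was not tested.

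Over all genes, the 14 calls for both siRNAs became 0 to 37 with 1 array left out (0 without 1 of the control or siRNA 2 arrays, 37 and 23 without siRNA 1 replicate 1 and 2), 68 with the replicate block, 38 above the median level, 74 with the intensity trend, and 0 with the array code block or with all probe sets. For siRNA 1, 14 calls became 437 without siRNA 1 replicate 1, 2 without siRNA 1 replicate 2 and 0 without 1 of the others, 241 with the replicate block, 154 with the intensity trend, 85 above the median level, 37 after cyclic loess, 26 with array medians aligned, and 0 with the array code block, all probe sets or only the groups compared. For siRNA 2, 0 calls became up to 26, and between the siRNAs 0 became up to 23. The 5 replicate calls became 0 to 10 with 1 array left out (10 without either siRNA 1 array) and up to 1702 with the intensity trend. Fitting only the groups compared gives no value for both siRNAs or for the replicates, and the array code block gives none for the replicates. With 2 arrays per group, the 95% intervals of all 37 changes with both siRNAs included 0 in the fit without the replicate block. With the block, those of Orc1, Pola1 and E2f2 lay below 0 (limma unadjusted p = 0.0391, 0.0499 and 0.0334), and none was called. In that fit 17.5% of all genes had an unadjusted p under 0.05.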
